A study of Mus musculus with 9 samples.

Results

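Genes of the mitochondrial respiratory chain and ATP synthase were compared in 66cl4, a mouse mammary tumour line of the triple-negative type. They were the rows of the count table whose gene symbol follows the naming of complex I (Nduf), complex II (Sdh), complex III (Uqcr), complex IV (Cox4 to Cox8), complex V (Atp5) or the mitochondrial protein-coding genes (mt-Nd, mt-Co, mt-Cytb, mt-Atp). Of 52208 rows, 99 matched, 86 in the nuclear genome and 13 in mitochondrial DNA. The symbols chose them and no measured value did. Names with -ps were left out, but Cox6c2, a processed pseudogene in the annotation, and Ndufb1, annotated as a non-coding RNA, matched. Subunits with other symbols, such as Ndufab1 and Cyc1, did not. Of the 99, 93 had enough counts for a test, 80 nuclear and 13 mitochondrial.

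Messenger RNA was sequenced from 3 groups of 3 biological replicates. Scramble cells carried a non-targeting short hairpin and an empty vector, knockdown cells a hairpin against Eya3 and the empty vector, and add-back cells the same Eya3 hairpin with IKK2-SE, a mutant IKK2 kinase that keeps NF-kB signalling on. All 9 cultures, scramble included, had been transduced with a hairpin vector under puromycin and chosen by the mCherry of the empty or IKK2-SE vector, and all grew in high-glucose medium with calf serum. The labels name 1 hairpin number in the sample titles and another in the table's columns, do not say whether cells were pools or clones, and do not tell if each replicate was transduced on its own, so a p-value here measures only the spread among the samples, which may be technical.

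The respiratory chain passes electrons from NADH and succinate through complexes I and II, coenzyme Q, complex III and cytochrome c to oxygen at complex IV. Complexes I, III and IV pump protons, and complex V, the ATP synthase, uses the gradient to make ATP. Complex II is built from nuclear genes alone, while the other complexes combine nuclear subunits, made in the cytosol and imported, with hydrophobic core subunits made inside mitochondria from the mitochondrial DNA. Many carcinoma lines in high-glucose medium rely heavily on glycolysis and still respire.

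Library totals ran from 63601403 to 81534534 counts. Eya3, the targeted gene, stood at 62.7 ± 1.63 CPM (counts scaled to a common library size, mean ± SD, n = 3) in scramble, 25.0 ± 0.602 in knockdown and 26.6 ± 2.21 in add-back libraries. Of the markers of the labelled cell type, the keratin Krt8 ran from 594 to 1387 CPM and the mesenchymal Vim from 2503 to 4047 CPM, while the epithelial genes Epcam, Cdh1, Krt18 and Krt5 stayed under 0.5 CPM in every library. The 6 epithelial markers summed to 596 to 649 CPM in scramble, 1254 to 1388 in knockdown and 1029 to 1106 in add-back libraries, nearly all of it Krt8, while Krt14 went the other way, with 1.21 to 1.29 CPM in scramble and 0.150 to 0.472 in knockdown libraries. The 3 mesenchymal markers summed to 3859 to 4273, 5685 to 6278 and 4518 to 5040 CPM, with Vim and Fn1 higher and Cdh2 lower in every knockdown than in every scramble library (Cdh2 at 237 to 249 and 194 to 205 CPM). The leukocyte markers summed to 14.9 to 21.3 CPM over all groups, nearly all of it Lyz2, and the liver marker Alb was at or near 0. The endothelial sum was 4.26 to 4.98 CPM in scramble, 0.199 to 0.370 in knockdown and 0.537 to 0.871 in add-back libraries. The fibroblast sum ran from 46.3 to 57.0 CPM over all groups, most of it Pdgfra, and its other genes went opposite ways. Pdgfrb was at 1.18 to 1.28 CPM in scramble, 6.61 to 7.96 in knockdown and 10.0 to 11.9 in add-back libraries, and Col1a1 at 3.51 to 4.33, 2.20 to 2.83 and 1.27 to 1.75 CPM. Whether these shifts have a part in the values below was not tested, and in bulk RNA fewer cells of a type and less RNA per cell cannot be told apart.

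The comparison of knockdown with scramble cells asked how the chain's transcripts differ where Eya3 is reduced. Most nuclear subunits that changed were modestly higher in the knockdown cells, a smaller set fell further, and 12 of the 13 mitochondrially encoded mRNAs did not pass the test. In edgeR's quasi-likelihood test with Benjamini-Hochberg adjustment over all 16766 genes tested, 40 of the 93 tested members rose and 15 fell (adjusted p below 0.05). The 55 called members are 59.1% of those tested, against a background of 57.5% of all genes called in this comparison. By direction, 43.0% of the members rose and 16.1% fell, beside 27.7% and 29.9% of all genes. The median log2 change was 0.12 over the 80 nuclear members and -0.08 over the 13 mitochondrial ones, beside -0.001 over all genes tested. Groups did not overlap for 59 of the 93 members, and for 63.6% of all genes. Changes of single genes are given below as log2 fold change ± SE from this test, levels as the CPM of replicates 1 to 3, and positions on GRCm38 (mm10).

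The nuclear subunits of complexes I, III, IV and V had like medians. In complex I 18 rose and 6 fell of 37 tested, with a median log2 change of 0.13. In complex II 1 rose and 1 fell of 4, with a median of 0.04. In complex III 4 rose and 2 fell of 8, with a median of 0.12. In complex IV 7 rose and 3 fell of 14, with a median of 0.14. In complex V 9 rose and 3 fell of 17, with a median of 0.13. Every complex thus held both risers and fallers, and no test of a difference between complexes was made.

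**Figure D1:**
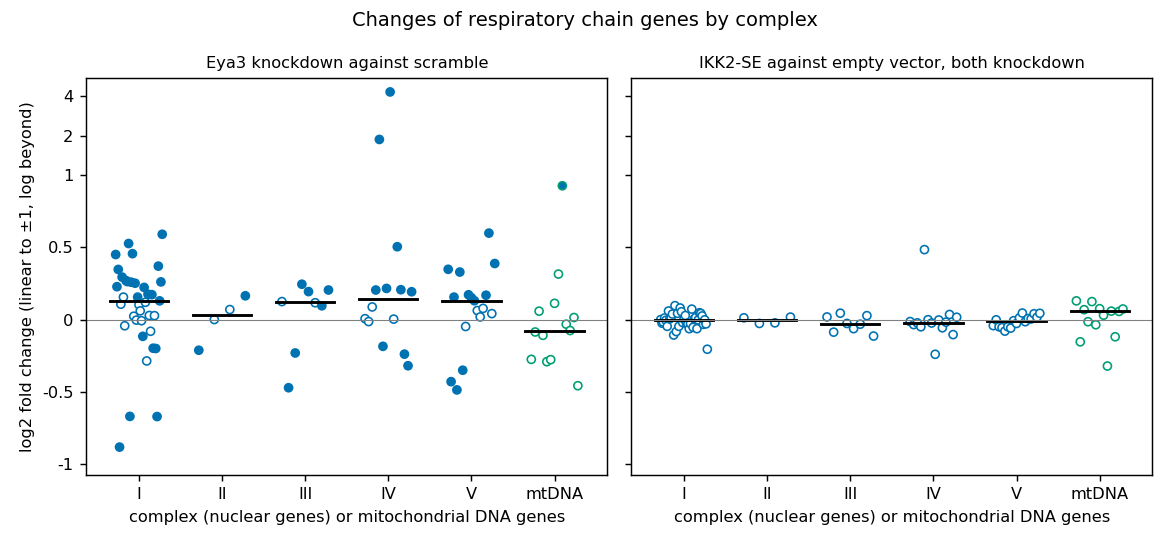
Log2 fold change of each tested member, nuclear genes by complex and mitochondrial genes apart, for knockdown against scramble and for IKK2-SE against empty vector within knockdown cells. Filled points passed an adjusted p of 0.05, bars are medians, and the axis is logarithmic beyond 1 on either side. On the left 55 points are filled and on the right none is.

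Complex I oxidizes NADH. Its flavin and iron-sulfur clusters sit in an arm that projects into the matrix, split into an NADH-oxidizing and a quinone-reducing module. The largest fall among all 93 members was that of Ndufa12 (chromosome 10, 94198720 to 94221443, plus strand), an accessory subunit of the NADH module, which was at 109, 109 and 116 CPM in scramble, 58.0, 63.5 and 60.1 in knockdown and 56.5, 62.1 and 64.6 in add-back libraries. Every scramble library lay above every library with the Eya3 hairpin, and knockdown and add-back values overlapped. Ndufa12 fell by 0.88 ± 0.05 (edgeR adjusted p = 3.29e-10). Ndufs7 (chromosome 10, 80249121 to 80256794, plus strand), an iron-sulfur core subunit beside the quinone site, stood at 84.8, 82.0 and 75.3 CPM in scramble, 55.7, 47.5 and 49.0 in knockdown and 57.5, 48.1 and 49.3 in add-back libraries. Its groups were likewise apart, and it fell by 0.67 ± 0.07 (edgeR adjusted p = 1.31e-06). Ndufa8 (chromosome 2, 36036326 to 36049406, minus strand), an accessory subunit of the membrane arm, stood at 45.5, 44.4 and 47.3 CPM in scramble, 28, 31.4 and 26.9 in knockdown and 31.7, 29.3 and 31.3 in add-back libraries. The scramble values were the high ones again, and Ndufa8 fell by 0.67 ± 0.06 (edgeR adjusted p = 4.72e-08). Ndufs6 (chromosome 13, 73319838 to 73328542, minus strand), a zinc-binding accessory subunit of the NADH module, was at 74.3, 79.1 and 82.9 CPM in scramble, 64.6, 71.6 and 69.7 in knockdown and 65.9, 72.7 and 73.7 in add-back libraries. The knockdown values stood below the scramble values by a narrow gap, and Ndufs6 fell by 0.20 ± 0.05 (edgeR adjusted p = 0.00445).

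The rises described next were those in complex I with the smallest adjusted p. By size, Ndufb1 (0.46) and Ndufa1 (0.45), which were assigned to neither matrix arm module, came between Ndufa7 and Ndufs8. Ndufv3 (chromosome 17, 31520115 to 31531331, plus strand), an accessory subunit of the NADH module, was at 98.3, 98.1 and 88.3 CPM in scramble, 149, 144 and 136 in knockdown and 131, 132 and 109 in add-back libraries. The 3 knockdown libraries were the highest, the add-back libraries lay between, and no 2 groups overlapped. Ndufv3 rose by 0.59 ± 0.07 (edgeR adjusted p = 2.23e-06). Ndufa7 (chromosome 17, 33824572 to 33838317, plus strand), another NADH module subunit, stood at 57.6, 53.4 and 49.3 CPM in scramble, 80.8, 73.0 and 77.0 in knockdown and 74.8, 69.4 and 70.3 in add-back libraries. Both hairpin groups lay above scramble, and Ndufa7 rose by 0.53 ± 0.06 (edgeR adjusted p = 4.82e-07). Ndufs8 (chromosome 19, 3908863 to 3912774, minus strand), an iron-sulfur core subunit of the quinone module, stood at 55.5, 54.4 and 51.6 CPM in scramble, 72.8, 67.1 and 68.7 in knockdown and 72.1, 62.5 and 69.5 in add-back libraries. It was lowest in the scramble libraries and rose by 0.37 ± 0.05 (edgeR adjusted p = 1.63e-05). Ndufa9 (chromosome 6, 126821721 to 126849136, minus strand), which holds the quinone module to the membrane arm, was at 82.8, 82.8 and 81.3 CPM in scramble, 99.5, 100.3 and 95.6 in knockdown and 95.1, 90.8 and 93.2 in add-back libraries. Its 3 groups were apart, with knockdown highest, and it rose by 0.26 ± 0.04 (edgeR adjusted p = 1.42e-05).

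Of the 10 nuclear subunits assigned to the NADH module 6 rose and 3 fell, of the 5 of the quinone module 3 rose and 1 fell, and of the 22 other tested subunits 9 rose and 2 fell. Over all genes 27.7% rose and 29.9% fell, so calls in both directions are not particular to these modules. Ndufv1, the flavin-binding core subunit, changed by 0.13 ± 0.04 and Ndufv2 by 0.26 ± 0.04, both called, whereas Ndufs1, the largest iron-sulfur subunit, had 0.03 ± 0.03 (edgeR adjusted p = 0.476). Ndufs4 and Ndufb7 were the other fallers, with -0.20 and -0.12. Ndufb1, with 0.46 ± 0.10, is annotated by GENCODE as a non-coding RNA under the symbol Ndufb1-ps. Ndufa4, which keeps its complex I symbol although it is now counted a subunit of complex IV, stood at 89.8, 91.6 and 84.8 CPM in scramble, 91.1, 84.5 and 83.0 in knockdown and 91.9, 81.7 and 86.01 in add-back libraries. Its groups overlapped, with a change of -0.04 ± 0.05 (edgeR adjusted p = 0.499). Its hypoxia-inducible relative Ndufa4l2 was under the count filter, with 2, 3 and 0 reads in scramble, 15, 12 and 9 in knockdown and 6, 3 and 8 in add-back libraries.

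Complex II is succinate dehydrogenase, also an enzyme of the tricarboxylic acid cycle. Sdha (chromosome 13, 74322254 to 74350280, minus strand), the flavin subunit that oxidizes succinate, was at 295, 297 and 299 CPM in scramble, 254, 255 and 260.3 in knockdown and 254, 266 and 257 in add-back libraries. The scramble libraries stood above all others, and Sdha fell by 0.21 ± 0.03 (edgeR adjusted p = 4.44e-05). Sdhd (chromosome 9, 50596357 to 50603812, minus strand), a membrane anchor, was at 110.2, 107 and 95.4 CPM in scramble, 124, 114 and 112 in knockdown and 131, 111 and 113 in add-back libraries. Scramble values lay just under the knockdown values, and Sdhd rose by 0.17 ± 0.07 (edgeR adjusted p = 0.0452). That call was lost without knockdown replicate 1 (0.12, edgeR adjusted p = 0.156), without knockdown replicate 2 (0.18, 0.0618), without scramble replicate 2 (0.19, 0.0554) and without scramble replicate 3 (0.11, 0.184), and with library totals as the scaling (0.12, 0.154). Sdhb, the iron-sulfur subunit, changed by 0.00 ± 0.05 and Sdhc, the other anchor, by 0.07 ± 0.04, neither called.

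Complex III moves electrons from coenzyme Q to cytochrome c. Uqcr11 (chromosome 10, 80402997 to 80406830, minus strand), a small accessory subunit, was at 133, 133 and 126 CPM in scramble, 95.7, 97.0 and 89.9 in knockdown and 92.1, 87.6 and 86.5 in add-back libraries. Scramble libraries were highest, and knockdown and add-back values overlapped. Uqcr11 fell by 0.47 ± 0.04 (edgeR adjusted p = 5.8e-08). Uqcrb (chromosome 13, 66900617 to 66905378, minus strand), which contributes to the quinone site, stood at 69.8, 73.1 and 77.1 CPM in scramble, 56.6, 64.2 and 66.9 in knockdown and 57.8, 64.9 and 71.0 in add-back libraries. Scramble and knockdown values were apart by a narrow gap, and Uqcrb fell by 0.23 ± 0.07 (edgeR adjusted p = 0.0138), a call lost without scramble replicate 3 (-0.19, 0.0608) and without knockdown replicate 1 (-0.16, 0.0609). The 2 large matrix-facing core proteins rose. Uqcrc1 (chromosome 9, 108936633 to 108949623, plus strand) was at 198, 199 and 192 CPM in scramble, 241, 231 and 225 in knockdown and 229, 228 and 228 in add-back libraries. Its scramble values were the lowest, and it rose by 0.24 ± 0.04 (edgeR adjusted p = 1.99e-05). Uqcrc2 (chromosome 7, 120635176 to 120659524, plus strand) stood at 138, 136 and 136 CPM in scramble, 158, 155 and 156 in knockdown and 152, 146 and 152 in add-back libraries. Its 3 groups were apart, with scramble lowest, and it rose by 0.19 ± 0.03 (edgeR adjusted p = 0.000119); 19.7% of its exon length overlaps Pdzd9 on the opposite strand.

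Among the small complex III subunits, Uqcrq rose by 0.20 ± 0.04 (edgeR adjusted p = 0.000285) and the hinge protein Uqcrh by 0.10 ± 0.04 (edgeR adjusted p = 0.0277). The Uqcrh call was lost without scramble replicate 2 (0.08, 0.123), without scramble replicate 3 (0.10, 0.0526), without knockdown replicate 2 (0.09, 0.0816), with library totals (0.05, 0.278) and with no count filter (0.10, 0.0834). Uqcrfs1, the Rieske iron-sulfur protein, had 0.12 ± 0.05 and Uqcr10 had 0.12 ± 0.08, and neither was called.

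**Figure D2:**
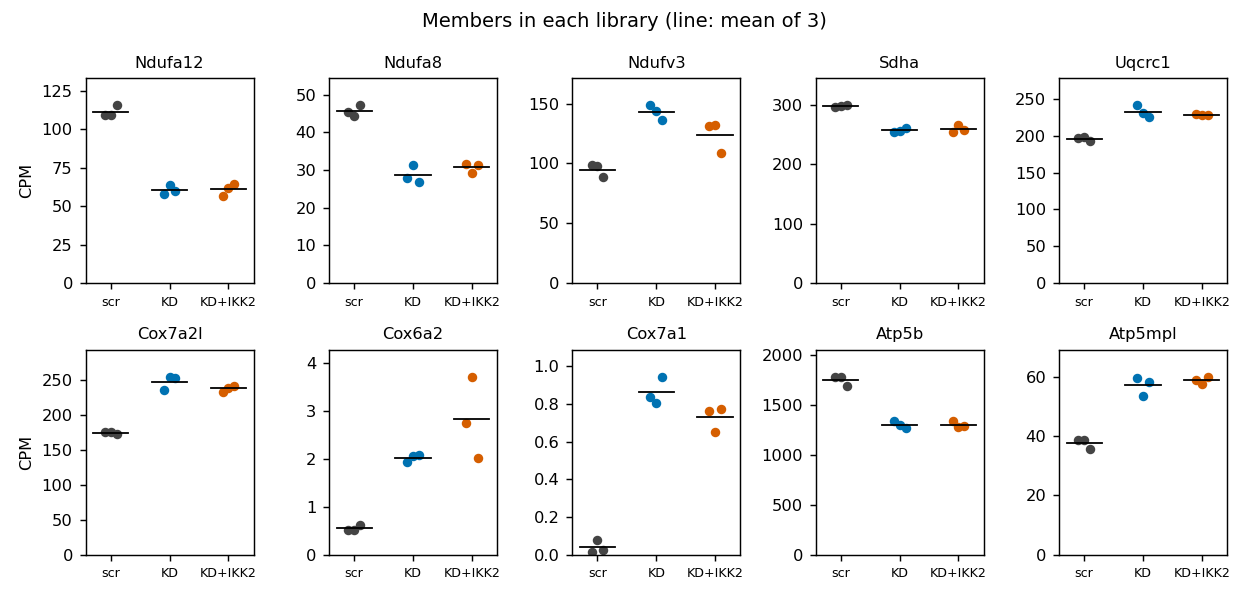
CPM (library-scaled counts) of 10 members in each library, with the mean of 3 as a line and each axis starting at 0. Groups are scramble (scr), Eya3 knockdown (KD) and knockdown with IKK2-SE (KD+IKK2). Ndufa12, Ndufa8, Sdha and Atp5b are highest in scramble and the other 6 lowest there.

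Complex IV, cytochrome c oxidase, has several subunits with tissue isoforms. The largest relative changes of all tested members were in 2 muscle isoforms at very low levels. Cox7a1 (chromosome 7, 30184144 to 30186078, plus strand), the heart and skeletal muscle form of subunit 7a, had 1, 6 and 2 reads in the scramble, 67, 63 and 71 in the knockdown and 58, 46 and 54 in the add-back libraries. No hairpin library came near a scramble library, and Cox7a1 rose by 4.33 ± 0.39 (edgeR adjusted p = 6.65e-08), a fold that rests on 9 scramble reads. Cox6a2 (chromosome 7, 128205435 to 128206387, minus strand), the muscle form of subunit 6a, had 33, 40 and 47, then 154, 161 and 156, then 208, 262 and 141 reads. It was lowest in scramble, with knockdown and add-back values overlapping, and rose by 1.87 ± 0.22 (edgeR adjusted p = 1.95e-06).

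The widely expressed forms stayed dominant. Per kilobase of exon, Cox7a1 made up 0.0245 to 0.119% of the sum of Cox7a1 and Cox7a2 in scramble, 1.28 to 1.53% in knockdown and 1.08 to 1.26% in add-back libraries. Cox6a2 made up 0.205 to 0.259%, 0.680 to 0.733% and 0.728 to 1.36% of its sum with Cox6a1. The striated muscle markers Ckm, Myh7 and Actc1 summed to 0.691 to 1.253 CPM in scramble, 0.784 to 1.14 in knockdown and 0.814 to 1.12 in add-back libraries, most of it Myh7, with Actc1 at 0 in all 6 hairpin libraries. Cox7a2 itself was at 111, 114 and 101 CPM in scramble, 114, 106 and 107 in knockdown and 114, 105 and 107 in add-back libraries. Its groups overlapped, with a change of 0.00 ± 0.05 (edgeR adjusted p = 0.954). Cox6a1 (chromosome 5, 115345642 to 115348981, minus strand) stood at 249.5, 258 and 248 CPM in scramble, 289.9, 290.5 and 290.1 in knockdown and 281, 276 and 283 in add-back libraries. Its groups were all apart, with knockdown highest, and it rose by 0.20 ± 0.03 (edgeR adjusted p = 5.45e-05).

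Cox7b2, a relative of Cox7b, was expressed at nearly the same level per kilobase as Cox7b in scramble cells, where it made up 48.1 to 50.1% of their sum. Cox7b2 (chromosome 5, 71442824 to 71548205, minus strand) was at 41.0, 39.4 and 40.4 CPM in scramble, 33.7, 32.7 and 36.1 in knockdown and 35.2, 34.0 and 35.8 in add-back libraries. It was highest in scramble and fell by 0.24 ± 0.05 (edgeR adjusted p = 0.000448), while Cox7b rose by 0.21 ± 0.04 (edgeR adjusted p = 0.000185), and the Cox7b2 share was 40.1 to 43.0% in knockdown libraries. Cox7a2l (chromosome 17, 83501918 to 83517330, minus strand) is described as linking complexes III and IV into a supercomplex. Which form of it these cells carry was not examined. It stood at 176, 175 and 173 CPM in scramble, 235, 255 and 253 in knockdown and 233, 239 and 242 in add-back libraries. Scramble values were the lowest by a wide margin, and Cox7a2l rose by 0.50 ± 0.04 (edgeR adjusted p = 7.76e-09).

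The largest fall among the nuclear subunits of complex IV was that of Cox7c. Cox7c (chromosome 13, 86044816 to 86046904, minus strand) was at 105, 103 and 96.6 CPM in scramble, 85.2, 78.7 and 79.8 in knockdown and 82.0, 73.2 and 71.7 in add-back libraries. Scramble values were the highest, and it fell by 0.32 ± 0.05 (edgeR adjusted p = 6.3e-05). A processed pseudogene, Gm10012, matches 58.3% of its transcript at 99.4% identity, so its reads may be shared. The same holds for other nuclear members, among them Ndufa12 (Gm15920, 99.5% over 402 bases) and Ndufs6 (Ndufs6b, 96.6% over 348 bases). Others are Uqcrb (Gm2962, 98.2% over 336 bases) and Atp5pb (Gm12231, 98.7% over 696 bases). Adding the reads of these copies was not tried. Cox6b1 fell by 0.18 ± 0.04, and Cox6c and Cox8a rose by 0.22 ± 0.04 and 0.19 ± 0.04. Cox4i1, the main form of subunit 4, was at 290.3, 289 and 281 CPM in scramble, 294, 285 and 285 in knockdown and 289, 280.4 and 287 in add-back libraries. Its groups overlapped and its change was 0.01 ± 0.03 (edgeR adjusted p = 0.887). The lung form Cox4i2 had at most 3 reads in a library, the germ-line and muscle forms Cox6b2, Cox8b and Cox8c had none, and Cox6c2, a processed pseudogene in the annotation, had 3 to 10.

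Complex V has a catalytic head, a central stalk, a peripheral stalk and a membrane ring. Its 2 head subunits are the most abundant nuclear members with Cox6a1, at 414 ± 12.1 CPM per kilobase for Atp5b and 328 ± 2.71 for Atp5a1 in scramble cells, and they moved in opposite directions. Atp5b (chromosome 10, 128083273 to 128090391, plus strand), the catalytic beta subunit, was at 1784, 1783 and 1695 CPM in scramble, 1338, 1302 and 1273 in knockdown and 1338, 1279 and 1292 in add-back libraries. All scramble values were above all others, and Atp5b fell by 0.43 ± 0.04 (edgeR adjusted p = 3.83e-08). Atp5a1 (chromosome 18, 77773729 to 77782869, plus strand), the alpha subunit, was at 1038, 1029 and 1021 CPM in scramble, 1325, 1312 and 1295 in knockdown and 1262, 1284 and 1276 in add-back libraries. Here all scramble values were the lowest, and Atp5a1 rose by 0.35 ± 0.03 (edgeR adjusted p = 9.1e-08). In knockdown cells the order was therefore turned, with 308 CPM per kilobase for Atp5b and 418 for Atp5a1.

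In the stalks, Atp5d (chromosome 10, 80138632 to 80145818, plus strand), the delta subunit of the central stalk, was at 394, 400.2 and 384 CPM in scramble, 279.6, 288 and 275 in knockdown and 270.0, 277 and 264 in add-back libraries. Scramble libraries were highest, and Atp5d fell by 0.48 ± 0.04 (edgeR adjusted p = 6.25e-09). Atp5pb (chromosome 3, 105942698 to 105960099, minus strand), the b subunit of the peripheral stalk, stood at 228, 220.4 and 225 CPM in scramble, 287, 307 and 287 in knockdown and 298, 298 and 312 in add-back libraries. Scramble libraries were lowest, and Atp5pb rose by 0.39 ± 0.04 (edgeR adjusted p = 2.04e-07). Atp5mpl (chromosome 12, 111961375 to 111966977, minus strand), a small membrane subunit, stood at 38.8, 38.7 and 35.7 CPM in scramble, 59.6, 53.5 and 58.2 in knockdown and 58.8, 57.4 and 60.0 in add-back libraries. It was again lowest in scramble and rose by 0.60 ± 0.05 (edgeR adjusted p = 2.83e-08). The membrane ring is built from a protein, identical in its mature form, that 3 genes encode. Atp5g1 fell by 0.35 ± 0.07 (edgeR adjusted p = 0.000241), Atp5g3 rose by 0.17 ± 0.04 (edgeR adjusted p = 0.000986) and Atp5g2 had -0.05 ± 0.08 (edgeR adjusted p = 0.626). Processed copies match transcripts of Atp5g1 and Atp5g2. Gm10039 matches part of Atp5g1 at 99.8% over 411 bases. Gm10231 matches a whole annotated transcript of Atp5g2 at 100% over 441 bases, so reads of Atp5g2 may be shared.

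The mitochondrial genome encodes 7 subunits of complex I, 1 of complex III, 3 of complex IV and 2 of complex V. Its strands are transcribed as long precursors that are cut at the transfer RNAs, and most of the mRNAs carry short poly(A) tails, while that of ND6 is known in human cells to lack one. Levels per kilobase spanned 3079 ± 83.0 CPM for mt-Co1 to 3.995 ± 0.998 CPM for mt-Nd3 in scramble cells. The order was mt-Co1, mt-Nd1 (1941), mt-Cytb (1663), mt-Nd2 (709), mt-Nd5 (637), mt-Nd4 (361) and mt-Nd6 (141), then a drop to mt-Co2 (20.6), mt-Co3 (15.3), mt-Atp6 (14.5), mt-Atp8 (6.20), mt-Nd4l (4.23) and mt-Nd3. Neighbours in the order had scramble values apart down to mt-Co2, and from there each overlapped the next, except mt-Atp6 and mt-Atp8.

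Nuclear copies limit what these counts mean. The mm10 annotation holds unprocessed pseudogenes on chromosome 1 that match mt-Co2, mt-Co3, mt-Atp6, mt-Nd3 and mt-Nd4l over 99.0 to 99.9% of their length at 99.7 to 100% identity, and parts of mt-Co1 and mt-Nd4. A read from such a stretch has more than 1 best match, and how the submitters treated such reads is not given in the sources used here. The 5 fully copied genes are, with mt-Atp8, the 6 at the low end of the order. In the table the copy Gm10925 had 1484 to 2102 reads and mt-Atp6 575 to 841, and Gm28661 had 1323 to 1755 and mt-Co2 867 to 1196. The next 3 lines show bases 221 to 300 of mt-Co2, of its copy Gm28661 on chromosome 1 and of Gm13341 on chromosome 2, with the 3 bases at which Gm13341 differs in capitals; over all 681 bases compared, mt-Co2 and Gm28661 had 0 differences.
mt-Co2: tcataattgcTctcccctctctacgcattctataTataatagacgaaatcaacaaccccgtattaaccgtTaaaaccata
Gm28661: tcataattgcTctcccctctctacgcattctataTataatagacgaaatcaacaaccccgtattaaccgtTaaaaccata
Gm13341: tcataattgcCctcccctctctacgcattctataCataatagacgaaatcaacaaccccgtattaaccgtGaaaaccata

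**Figure D3:**
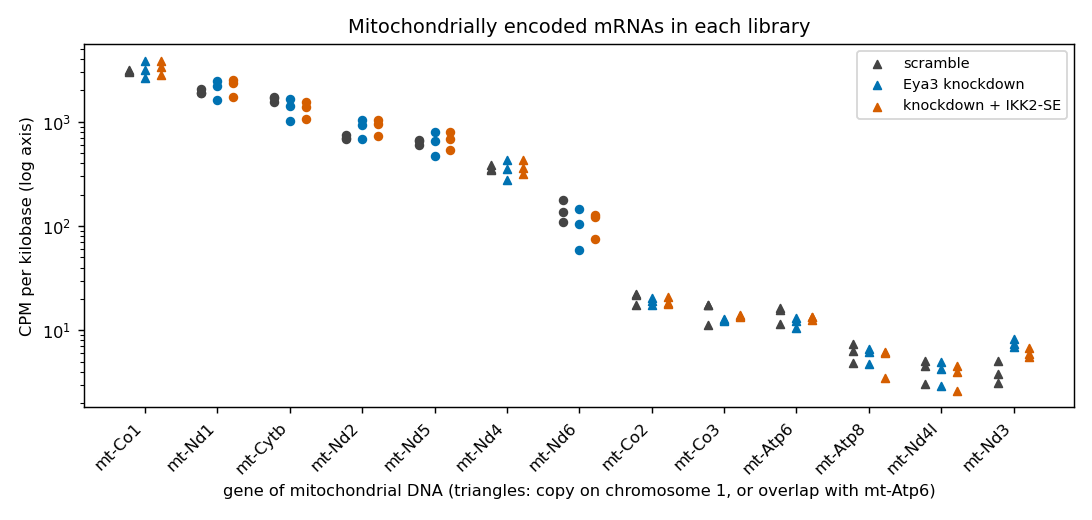
CPM per kilobase of exon, on a log axis, of the 13 mitochondrially encoded mRNAs in each library, ordered by their scramble mean. Triangles mark genes with a near-identical copy on chromosome 1 or an overlap with mt-Atp6, and the 6 lowest genes are all triangles.

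No mitochondrial mRNA other than mt-Nd3 passed the test between knockdown and scramble cells, but the spread was wide. mt-Nd3 (mitochondrial DNA, 9459 to 9806, plus strand) was at 1.76, 1.33 and 1.08 CPM in scramble, 2.59, 2.88 and 2.41 in knockdown and 2.06, 1.92 and 2.33 in add-back libraries. Every knockdown library was above every scramble library, and mt-Nd3 rose by 0.93 ± 0.17 (edgeR adjusted p = 0.000205); with the reads of its chromosome 1 copy Gm28438 added, an alternative chosen after seeing the data, the change was 0.67 (edgeR adjusted p = 0.000243). mt-Co1 stood at 4649.5, 4899 and 4724 CPM in scramble, 4053, 4876 and 5943 in knockdown and 4373, 5992 and 5233 in add-back libraries. Its groups overlapped, with knockdown and add-back values on both sides of the scramble range, and the change was 0.06 ± 0.15 (edgeR adjusted p = 0.766). mt-Cytb was at 1777, 2002 and 1927 CPM in scramble, 1172, 1632 and 1909 in knockdown and 1209.5, 1792 and 1600.3 in add-back libraries. It overlapped too, with a change of -0.28 ± 0.20 (edgeR adjusted p = 0.296). mt-Nd1, mt-Nd4 and mt-Nd5 had changes of 0.11, -0.03 and 0.01, each with an SE from 0.17 to 0.21.

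Calls among the mitochondrial genes turned on single libraries. mt-Nd2 had 0.32 ± 0.18 (edgeR adjusted p = 0.171), and 0.48 with 0.00332 without knockdown replicate 1. mt-Co3 had -0.29 ± 0.13 (edgeR adjusted p = 0.0622), and -0.47 with 4.3e-05 without scramble replicate 3. mt-Atp6 had -0.27 ± 0.12 (edgeR adjusted p = 0.0544), and -0.42 with 0.00152 without scramble replicate 3 and -0.34 with 0.0368 without knockdown replicate 3. mt-Co2 had -0.11 ± 0.10 (edgeR adjusted p = 0.358), and -0.22 with 0.0388 without scramble replicate 3. With no count filter mt-Nd1, mt-Nd2, mt-Cytb, mt-Nd6, mt-Co3 and mt-Atp6 passed as well, with edgeR adjusted p from 7.44e-18 for mt-Nd6 to 0.00692 for mt-Atp6 and log2 changes close to those reported. mt-Co3 and mt-Atp6 passed also with library totals as the scaling and with DESeq2, and neither did with the reads of the chromosome 1 copies added. The median over the 13 genes, -0.08, was 0.12 without knockdown replicate 1 and 0.02 without scramble replicate 2. mt-Nd6 is the gene read from the other strand and overlaps mt-Nd5 by 14 bases; whether reads were counted by strand is not given, and its change was -0.46 ± 0.38 (edgeR adjusted p = 0.358).

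Nuclear and mitochondrial members differed in spread. The within-group coefficient of variation of a nuclear member had a median of 3.79% in scramble, 4.17% in knockdown and 4.53% in add-back cells, and of a mitochondrial member 13.7, 21.1 and 17.2%, beside 5.93, 6.55 and 7.10% over all genes tested. For the 5 mitochondrial genes with neither an annotated copy on chromosome 1 nor an overlap with mt-Atp6 (mt-Nd1, mt-Nd2, mt-Nd5, mt-Nd6, mt-Cytb) the medians were 5.61, 23.7 and 19.3%. Of these, mt-Nd2 and mt-Nd5 have partial copies on chromosomes 2 and 13, at 96.7 and 95.2% identity. The median SE of the log2 change was 0.18 for mitochondrial and 0.05 for nuclear members, so a change of the size seen in most nuclear members was not detectable in the mitochondrial ones.

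Summed over genes as counted, the 2 genomes gave about the same share of all counts. The mitochondrial sum depends on how reads matching the chromosome 1 copies were treated, which is not given. Those copies themselves summed to 86.2 ± 11.8 CPM in scramble, 82.1 ± 8.29 in knockdown and 81.8 ± 6.54 in add-back libraries. The 13 mitochondrial mRNAs summed to 11026 ± 446 CPM in scramble, 11204 ± 2354 in knockdown and 11609 ± 1988 in add-back libraries, and the 86 nuclear members to 10280 ± 228, 10462 ± 173 and 10323 ± 205 CPM. These group differences lay within the spread. Replicate 1 had the lowest mitochondrial share in all 3 groups, 1.08% of all counts in scramble, 0.862% in knockdown and 0.952% in add-back cells, against 1.11 to 1.33% in the other 6 libraries. The mitochondrial ribosomal RNAs mt-Rnr1 and mt-Rnr2 summed to 810 ± 63.0, 878 ± 76.4 and 962 ± 126 CPM and were lowest in replicate 1 of each Eya3 hairpin group and in replicate 3 of scramble.

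**Figure D4:**
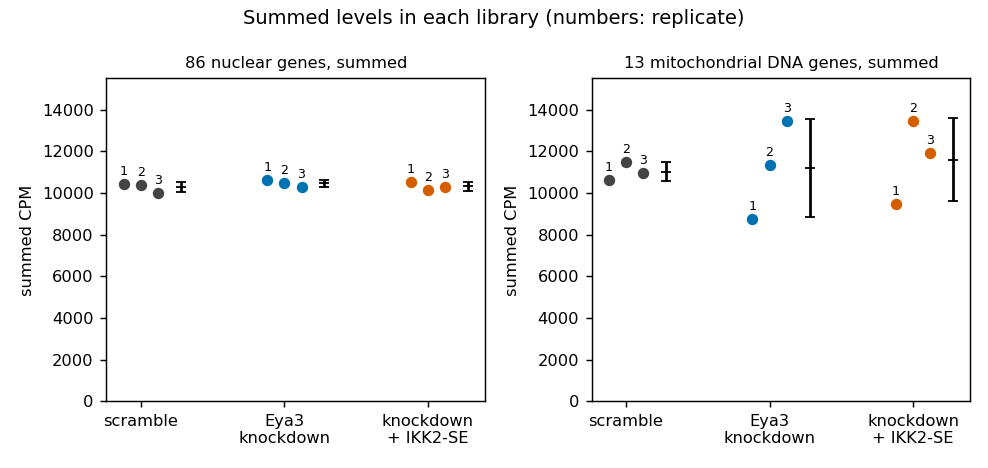
Summed CPM of the 86 nuclear members and of the 13 mitochondrially encoded mRNAs in each library, labelled by replicate number, with mean and SD (n = 3) beside each group. The nuclear sums run from 10018 to 10622 CPM and the mitochondrial ones from 8775 to 13475 CPM. How reads matching the chromosome 1 copies were counted is not given, and the mitochondrial sums depend on it.

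The falls were unevenly placed in the genome. All 5 tested members on chromosome 10 fell (Ndufa12, Ndufs7, Atp5d, Uqcr11 and Atp5b) and 5 of 6 on chromosome 13 did (Ndufs4, Ndufs6, Sdha, Uqcrb and Cox7c), whereas on the other chromosomes 39 nuclear members rose and 5 fell of 69. The 5 were Ndufa8, Ndufb7, Cox6b1, Cox7b2 and Atp5g1. On chromosome 17, 5 of 6 rose, and all 5 on chromosome 19 and all 3 on X did. The other tested genes of these chromosomes had median log2 changes of -0.36 on chromosome 10, -0.12 on chromosome 13, 0.31 on chromosome 17, -0.04 on chromosome 19 and 0.06 on X. Over all genes 27.7% rose and 29.9% fell, and the shares called on single chromosomes were not counted. Chromosomes 10 and 13 were set apart after the calls were seen, so the few falls elsewhere follow in part from that choice.

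Each nuclear member was set beside the 40 nearest tested genes that are not members, 20 on either side where the chromosome allowed. For the 15 fallers the median of these neighbour medians was -0.29, with 12 of 15 below 0. Over all 80 nuclear members tested it was -0.02 with 44 below 0, and over the 26 not called -0.02 with 16 below 0. The fallers' own change differed from that of their neighbours by a median of -0.006. For the 39 risers the neighbour medians had a median of 0.04 and the difference a median of 0.23. Ndufs7, Atp5d and Uqcr11 lie within a short stretch of chromosome 10 and share many of their neighbours, with neighbour medians of -0.67, -0.64 and -0.67 beside their own -0.67, -0.49 and -0.47. Ndufa12 had -0.88 beside neighbours at -0.59, and Uqcrb -0.23 beside -0.54. Cox7a2l rose by 0.50 beside neighbours at 0.55, and Atp5mpl by 0.60 beside 0.41.

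Others went apart from their surroundings. Ndufa8 fell by 0.67 where its neighbours had a median of 0.01, Cox7b2 fell by 0.24 beside 0.27, and Ndufs8 rose by 0.37 beside -0.27. Cox7a1 and Cox6a2 rose by 4.33 and 1.87 beside -0.35 and -0.11. Across the 80 nuclear members, which share the same libraries and partly the same neighbours, member and neighbour changes had a Pearson correlation of 0.18 and a Spearman correlation of 0.46, and a Pearson correlation of 0.68 without Cox7a1 and Cox6a2. Whether shifts shared by neighbouring genes have a part in the falls was not tested. Between add-back and knockdown cells the neighbour medians of the nuclear members lay from -0.07 to 0.09.

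**Figure D5:**
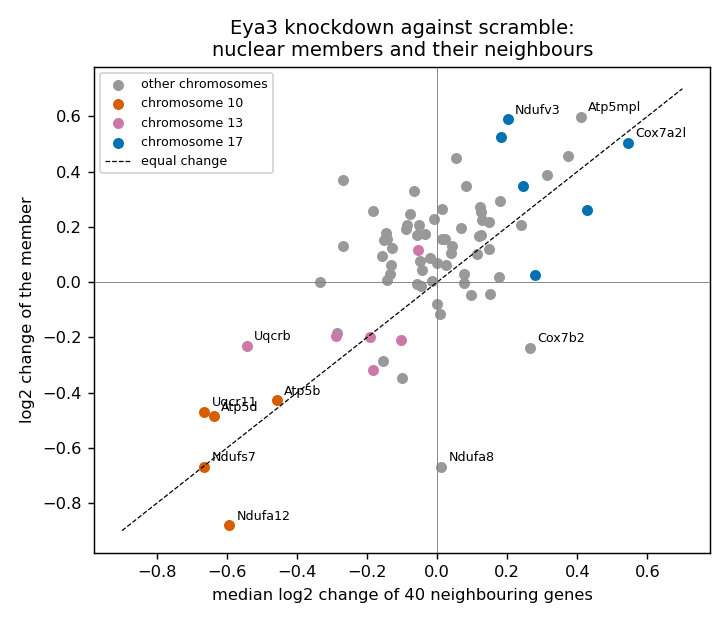
Log2 change between knockdown and scramble cells of each nuclear member against the median change of its 40 neighbouring tested genes, with Cox7a1 and Cox6a2 outside the plotted range. The 5 chromosome 10 members lie at the lower left near the dashed line of equal change, and Ndufa8 and Cox7b2 lie well under it.

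Promoters of respiratory genes are known for sites of NRF1 and of ETS factors such as GABPA, and YY1 sites occur among them. The 250 bases before the RefSeq gene start and the 50 after it (GRCm38.p6) were found for 69 of the 86 nuclear members and searched on both strands for exact letters. The NRF1 motif, the 10 capitals in the Ndufa11 sequence shown next, was in 5 of 69 (7.25%), against 1.07% of all 27025 promoters and 2.11% of those of tested genes that are no members. The ETS motif CCGGAAG was in 17 (24.6%, against 9.93 and 19.6%), the YY1 motif in 4 (5.80%, against 1.17 and 2.66%), the E-box CACGTG in 6 (8.70%, against 8.09 and 11.3%) and the NF-kB motif in 1 (1.45%, against 1.63 and 1.85%), that of Ndufb6. Of the 69 members searched 32 rose and 14 fell, and the few members with a motif are to be read against those counts. Members with an NRF1 match were Ndufa11, Uqcrc1, Cox6a1, Atp5g2 and Atp5k, of which 3 rose and none fell. The YY1 motif was in Ndufa9, which rose, and in Ndufs4, Ndufs6 and Ndufs7, which fell. These are letter matches and no measure of binding.

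The 250 bases upstream of 3 starts are shown 5′ to 3′ on the gene's strand, with NRF1 and ETS matches in capitals. Ndufa11, a membrane arm subunit of complex I that rose by 0.35 ± 0.06, and Cox6a1 hold an NRF1 match, and the muscle isoform Cox7a1, the largest riser, holds none of the 5 motifs here. They are at chr17:56717512-56717761 (plus strand), chr5:115348959-115349208 (minus strand) and chr7:30183921-30184170 (plus strand).
Ndufa11: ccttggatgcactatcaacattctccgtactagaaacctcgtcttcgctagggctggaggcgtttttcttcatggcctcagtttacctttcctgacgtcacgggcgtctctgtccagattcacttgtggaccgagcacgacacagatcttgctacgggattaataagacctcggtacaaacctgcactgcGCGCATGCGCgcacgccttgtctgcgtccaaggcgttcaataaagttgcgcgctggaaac
Cox6a1: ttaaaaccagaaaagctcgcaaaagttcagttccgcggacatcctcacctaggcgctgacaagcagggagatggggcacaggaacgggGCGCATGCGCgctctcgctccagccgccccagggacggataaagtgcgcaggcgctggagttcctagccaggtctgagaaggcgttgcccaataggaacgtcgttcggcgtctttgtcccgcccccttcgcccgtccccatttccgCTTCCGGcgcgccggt
Cox7a1: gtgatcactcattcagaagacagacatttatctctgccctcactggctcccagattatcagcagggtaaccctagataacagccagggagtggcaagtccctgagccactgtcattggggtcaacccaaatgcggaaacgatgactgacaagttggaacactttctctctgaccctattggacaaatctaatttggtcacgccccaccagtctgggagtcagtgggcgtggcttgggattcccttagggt

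The comparison of add-back with knockdown cells asked what active IKK2 changes where Eya3 is reduced. No respiratory chain gene passed the test, against 10.4% of all genes called in this comparison. With edgeR 0 of 93 were called and 4 had an unadjusted p under 0.05, with limma voom 0, and with DESeq2 1, Ndufv3. Median log2 changes were -0.01 over the nuclear and 0.06 over the mitochondrial members, beside 0.001 over all genes, and the mitochondrial median was -0.12 without knockdown replicate 1 and -0.08 without add-back replicate 2. By complex the nuclear medians ran from -0.03 in complex III to -0.001 in complex I, and single changes over all members from -0.32 for mt-Nd3 to 0.48 for Cox6a2.

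The smallest adjusted p was that of Ndufv3, with the library values given above, which changed by -0.20 ± 0.07 (edgeR adjusted p = 0.0671), all add-back values lying under all knockdown values. It passed with no count filter (-0.21, 0.000177), with DESeq2 (-0.21, 0.0339), and without scramble replicate 3 (-0.20, 0.0462), add-back replicate 1 (-0.25, 0.0454) or add-back replicate 2 (-0.25, 0.0476). Uqcrq (chromosome 11, 53427922 to 53430831, minus strand), a small subunit of complex III, was at 89.4, 84.6 and 85.3 CPM in scramble, 99.8, 101 and 98.4 in knockdown and 96.3, 89.9 and 90.2 in add-back libraries. Add-back values lay between scramble and knockdown values and touched neither, with a change from knockdown of -0.11 ± 0.04 (edgeR adjusted p = 0.0851); it passed without add-back replicate 1 (-0.14, 0.0464). Cox6a2 had 0.48 ± 0.19 (edgeR adjusted p = 0.123), with add-back replicate 3 in the range of the knockdown libraries; it passed without add-back replicate 3 (0.68, 0.0167) and with no count filter (0.48, 0.0487). mt-Nd3 had -0.32 ± 0.16 (edgeR adjusted p = 0.281) with groups that did not overlap, as was the case for 11 of 93 members and 24.7% of all genes.

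Add-back cells were also set beside scramble cells, which are the control of the knockdown comparison as well, so the 2 sets of values are not independent. Of 93 members 38 rose and 15 fell, 57.0%, against 55.8% of all genes called, with 40.9 and 16.1% in the 2 directions beside 27 and 28.7%. Nuclear members had a median of 0.11 with 37 risers and 15 fallers, and mitochondrial ones a median of -0.12, with mt-Nd3 called. Ndufa12 had -0.87 ± 0.05 here and -0.88 ± 0.05 in knockdown cells, Ndufa8 -0.57 ± 0.06 and -0.67 ± 0.06, Atp5b -0.43 ± 0.04 in both, Cox7a2l 0.45 ± 0.04 and 0.50 ± 0.04, Atp5pb 0.43 ± 0.04 and 0.39 ± 0.04, and Ndufv3 0.39 ± 0.07 and 0.59 ± 0.07. 

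Calls near the threshold against scramble turned on single libraries and on settings here too. Uqcrq, called in the knockdown, had 0.09 ± 0.04 in add-back cells (edgeR adjusted p = 0.0577) and passed without scramble replicate 1 (0.12, 0.0336), knockdown replicate 1 (0.10, 0.0466), add-back replicate 2 (0.12, 0.0402) or add-back replicate 3 (0.11, 0.0431), with a filter on CPM (0.10, 0.0386) and with the mitochondrial genes left out of the scaling (0.10, 0.0479). Ndufs6 fell by 0.16 ± 0.05 (edgeR adjusted p = 0.0211) and lost the call without scramble replicate 2 (-0.15, 0.0687), scramble replicate 3 (-0.12, 0.109) or add-back replicate 1 (-0.10, 0.138). Sdhd rose by 0.18 ± 0.07 (edgeR adjusted p = 0.029) and lost it without scramble replicate 3 (0.13, 0.114) or add-back replicate 1 (0.11, 0.133) and with library totals (0.16, 0.0516). Uqcrb fell by 0.18 ± 0.07 (edgeR adjusted p = 0.0431) and lost it without scramble replicate 2 (-0.18, 0.0939), scramble replicate 3 (-0.14, 0.158), knockdown replicate 2 (-0.18, 0.0599), add-back replicate 1 (-0.10, 0.21) or add-back replicate 2 (-0.18, 0.094) and with a filter on CPM (-0.18, 0.0502). Among mitochondrial genes not called, mt-Nd2 (0.35 ± 0.18) passed without knockdown replicate 1 (0.35, 0.0107) or add-back replicate 1 (0.48, 0.0304), mt-Cytb (-0.31 ± 0.20) without knockdown replicate 1 (-0.30, 0.0408), and mt-Co3 (-0.17 ± 0.13) and mt-Atp6 (-0.14 ± 0.12) without scramble replicate 3 (-0.35 with 0.000857 and -0.28 with 0.0202), as did mt-Co2 (-0.12 ± 0.10, then -0.23 with 0.0316). With only the 2 groups compared in the fit, mt-Nd2 (0.35, 0.00465) and mt-Cytb (-0.30, 0.0216) passed, and with no count filter mt-Cytb, mt-Nd6, mt-Co1, mt-Nd1 and mt-Nd2 did, with edgeR adjusted p from 1.4e-17 for mt-Nd2 to 0.000598 for mt-Co1. The mitochondrial median was 0.01 without add-back replicate 1.

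Assembly factors, electron carriers and the other genes that surround the chain made up 12 lists with 209 tested genes. In knockdown against scramble cells 38.8% of these rose and 24.9% fell, beside 27.7 and 29.9% of all genes, and the counts by list below are to be read against those shares. Of the complex I assembly factors 8 rose and 5 fell of 17 tested, among them Ndufaf1 (0.45 ± 0.06), Ndufaf7 (0.47 ± 0.05) and Timmdc1 (0.39 ± 0.04). Of complex II factors 1 rose and 1 fell of 4, and of complex III factors 3 rose and 2 fell of 6, with Uqcc2 at 0.61 ± 0.08 and Lyrm7, a chaperone of the Rieske protein, at -0.91 ± 0.09. Of complex IV factors 7 rose and 4 fell of 22, with Coa8 at 0.61 ± 0.05 and Cox15, a heme A synthase, at -0.56 ± 0.04. Of complex V factors 1 rose and 2 fell of 4. Atpaf1, a chaperone of the beta subunit, went from 2.68 ± 0.191 CPM in scramble to 0.0308 CPM in knockdown and 0.0276 CPM in add-back cells (-6.40 ± 0.45, edgeR adjusted p = 3.4e-09), a fold that rests on a few reads in the hairpin libraries.

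Around the chain, cytochrome c (Cycs) fell by 0.19 ± 0.04, while cytochrome c1 (Cyc1) had 0.05 ± 0.05 and was not called. The electron-transferring flavoprotein genes went opposite ways. Etfb fell by 1.10 ± 0.19 at a low level, from 3.02 ± 0.345 CPM in scramble to 1.41 ± 0.381 in knockdown cells, and Etfdh fell by 0.24 ± 0.04. Etfa rose by 0.095 ± 0.037 (edgeR adjusted p = 0.0403), and Dhodh rose by 0.12 ± 0.04. Of these carriers and subunits with other symbols 2 rose and 3 fell of 7. Tricarboxylic acid cycle genes had 8 risers and 2 fallers of 17 (47.1 and 11.8%), with Pdha1 at 0.45 ± 0.03 and Idh3g at 0.47 ± 0.04, and the fallers Cs (-0.23) and Mdh2 (-0.17). Coenzyme Q synthesis had 6 risers and 3 fallers of 13. Pdss2, which makes the isoprenoid tail and lies on chromosome 10, rose by 0.98 ± 0.05.

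Of 16 genes of mitochondrial DNA transcription and maintenance 4 rose and 4 fell (25% each), near the shares of all genes. The mitochondrial RNA polymerase Polrmt and the termination factor relative Mterf2, both on chromosome 10, fell by 0.67 ± 0.05 and 0.76 ± 0.09, and Tfam, the packaging and initiation factor on the same chromosome, rose by 0.14 ± 0.04. Of 15 genes of mitochondrial RNA processing and stability 8 rose and 2 fell (53.3 and 13.3%). The largest change was the fall of Angel2, from 62.1 CPM in scramble to 30.2 in knockdown cells (-1.04 ± 0.05, edgeR adjusted p = 4.45e-11), with 32.9 CPM in add-back cells. Fastkd5 fell by 0.32 ± 0.11. Grsf1, a protein of mitochondrial RNA granules, went from 88.4 ± 1.81 CPM to 176 CPM in knockdown cells (0.99 ± 0.04, edgeR adjusted p = 1.52e-12) and 155 CPM in add-back cells, and Lrpprc, which stabilizes mitochondrial mRNAs, rose by 0.52 ± 0.04. Mitochondrial ribosomal proteins had 30 risers and 22 fallers of 77 (39 and 28.6%), with a median of 0.02.

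Of 11 tested regulators of nuclear respiratory genes 3 rose and 2 fell. Nrf1 rose by 0.19 ± 0.05, Yy1 by 0.44 ± 0.05 and Pprc1, a coactivator of the PGC-1 family, by 0.26 ± 0.04, while Ppard and Nrip1, a corepressor, fell by 0.51 ± 0.05 and 0.41 ± 0.05. Gabpa (0.03 ± 0.07) and Esrra (0.09 ± 0.05) were not called. Ppargc1a stayed under 0.4 CPM on average in each group.

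Between add-back and knockdown cells, 8 of the 209 genes were lower (3.83%) and 1 higher (0.478%), against 4.82 and 5.61% of all genes. Lower were Ecsit of complex I assembly, Fastk, Hsd17b10 and Grsf1 of mitochondrial RNA processing, Ppard, Idh2, and the ribosomal proteins Mrpl12 and Mrpl50, and higher was Mrpl4. Grsf1 changed by -0.19 (edgeR adjusted p = 0.00262) and Hsd17b10, part of mitochondrial RNase P, by -0.16 (edgeR adjusted p = 0.00924), both toward the scramble level. Ppard, which had already fallen in knockdown cells, changed by a further -0.31 (edgeR adjusted p = 0.000833), from 116 to 93.2 CPM.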

How the data were processed

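The deposited table holds raw counts, 1 column of whole numbers per library, not normalized. Per the submitters' processing notes the authors used STAR on mm10, with FastQC and MultiQC as checks. The sources used here do not give the counter, its annotation, the strand setting or how reads with several matches were treated. Libraries were made with an mRNA-seq kit, per the labels' protocols. Columns were matched to samples by arm and replicate number, since the column names give another hairpin number than the titles.

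The grouped filterByExpr rule (count 10, total 15) kept 16766 of 52208 genes. All 9 libraries entered 1 robust quasi-likelihood model of edgeR 4.0.16 (R 4.3.3) on TMM-scaled counts, with group as the single term and 6 residual degrees of freedom. P-values were adjusted by Benjamini-Hochberg over all genes tested and called at 0.05. The SE was taken as the size of the log2 change over root F. CPM use the TMM library sizes, and levels between genes are per kilobase of GENCODE exon. Replicates within a group differed by more than sampling noise (chi-square per degree of freedom 3.87 to 20.9). DESeq2 1.42.0, limma 3.58.1 (voom), other scalings and filters, and leaving out each library were alternatives. So was adding the reads of the chromosome 1 copies to their mitochondrial genes. The procedure was tested on simulated data. Named members were up to 4 called in each direction per complex with the smallest adjusted p, the 3 smallest between add-back and knockdown, the 13 mitochondrial genes and paired isoforms; others were named after their values were seen. The members and lists were chosen with earlier results of these data known.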

Additional observations from a re-analysis of the deposited data

How the results depend on the processing

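The counts of members called ran, over 19 alternatives, from 51 to 66 for knockdown against scramble (55 as reported), from 46 to 62 for add-back against scramble (53) and from 0 to 3 for add-back against knockdown (0). In the last comparison 2 were called with no count filter, 1 with DESeq2 and 3 with a replicate block, and leaving out single libraries gave 0 to 2 (1 without scramble replicate 3, 2 without add-back replicate 1, 1 without add-back replicate 2 and 1 without add-back replicate 3). The cause was not tested. Deviations of same-numbered libraries correlated at 0.125 to 0.281 for replicate 1 and 0.109 to 0.177 for replicate 3, but at -0.011 to 0.033 for replicate 2, beside -0.237 to 0.077 for different numbers, and 6 of 9 libraries, all but replicate 2, correlated best with their own number. That is a hint from the data, not the design; since not every pair passed 0.1, the numbers were not taken to pair samples. A replicate block called 66, 3 and 62 members, the 3 being Cox7c, Ndufv3 and Uqcrq, and in knockdown against scramble it added mt-Nd6 (-0.50, edgeR adjusted p = 0.0482), mt-Co3 (-0.28, 0.0392) and mt-Atp6 (-0.27, 0.0463). Library totals as the scaling gave 33 higher and 18 lower members in knockdown against scramble. The nuclear median stayed above 0 in both comparisons with scramble under all alternatives (0.08 to 0.14 and 0.09 to 0.14), while the mitochondrial median changed sign when single libraries were left out (-0.22 to 0.12 for knockdown, -0.12 to 0.17 for add-back against knockdown and -0.18 to 0.01 for add-back against scramble).

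Of the 48 members followed in this way, 33 were called in knockdown against scramble and 30 of those stayed called under every alternative run on them. The exceptions were Sdhd, Uqcrh and Uqcrb. In add-back against scramble 29 of 32 stayed called. Most of the called ones had been picked for a small adjusted p in knockdown against scramble, which favours staying called. The other called members were not followed. No direction of a called change was reversed. With no count filter mt-Nd2 (3.92e-15), mt-Nd6 (7.44e-18), mt-Cytb (4.97e-13) and mt-Nd1 (0.00536) reached small adjusted p in edgeR for knockdown against scramble with log2 changes of 0.32, -0.46, -0.28 and 0.11, close to those reported. The cause was not tested. Depth limits the low members: Cox7a1 and Ndufa4l2 rest on few reads.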
